A study of Homo sapiens with 8 samples.

Results

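The 8 mature arms of the miR-21, miR-31, miR-135b and miR-224 hairpins were followed in sorted HCT116 cells. They were chosen by name, as both arms of 4 miRNAs known to be raised in colorectal tumours (hsa-miR-21-5p, hsa-miR-21-3p, hsa-miR-31-5p, hsa-miR-31-3p, hsa-miR-135b-5p, hsa-miR-135b-3p, hsa-miR-224-5p and hsa-miR-224-3p), and all 8 were present among the 2026 entries of the count table. HCT116 is a human colorectal carcinoma line, so every sample comes from a single established line. Its cells had been grown as spheroids in serum-free medium with B27 and N2 supplements, basic fibroblast growth factor and epidermal growth factor in low-attachment flasks, and this holds for both groups. Spheroid cells were stained for CD44v6, an isoform of the hyaluronan receptor CD44 that marks stem-like cells in colorectal cancer, and separated by flow cytometry into CD44v6− and CD44v6+ cells, with dead cells removed by propidium iodide. Small RNA was sequenced in 2 combined samples per group, and the study asked which miRNAs go with the stem-like cells. The sort itself cannot be checked here, since CD44v6 is an mRNA splice form.

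A miRNA hairpin is cut by Drosha and then Dicer into a short duplex, and Argonaute keeps mainly 1 strand, the guide, while the other strand, the passenger, is mostly degraded. The guide finds target messenger RNAs mainly through its seed, bases 2 to 8, so miRNAs of equal seed share targets. miR-21-5p represses the tumour suppressor PDCD4 and is among the best-studied oncogenic miRNAs. miR-31-5p is raised in colorectal tumours, among them those with BRAF mutations, and has RASA1, an inhibitor of RAS signalling, among its targets. miR-135b-5p represses APC, the gatekeeper of WNT signalling in the colon, and miR-224-5p represses SMAD4 of the TGF-β pathway. In each of the 4 hairpins the 5p arm is the guide.

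The guide sequences are shown with the seed in capitals, because the seed tells which other miRNAs of the table could act on the same targets. They come from RefSeq (GRCh38.p14), which matched 6 of the 8 arms by name, all but miR-21-3p and miR-31-3p. The last sequences are the matched entries that share a seed with a guide.
miR-21-5p: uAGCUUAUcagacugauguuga
miR-31-5p: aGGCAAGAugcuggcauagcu
miR-135b-5p: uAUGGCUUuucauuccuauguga
miR-224-5p: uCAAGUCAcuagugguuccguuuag
miR-590-5p: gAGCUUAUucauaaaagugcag
miR-135a-5p: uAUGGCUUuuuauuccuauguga
miR-590-5p carries the seed of miR-21-5p, and miR-135a-5p that of miR-135b-5p. Among the 1799 of 2026 entries with a mature sequence in RefSeq, no other had the seed of miR-31-5p or of miR-224-5p.

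The hairpins show how guide and passenger lie opposite each other. They are given whole, with each arm that RefSeq annotates in capitals, so that in MIR21 and MIR31 only the 5p arm is marked.
MIR21: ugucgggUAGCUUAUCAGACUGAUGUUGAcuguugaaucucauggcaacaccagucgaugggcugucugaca
MIR31: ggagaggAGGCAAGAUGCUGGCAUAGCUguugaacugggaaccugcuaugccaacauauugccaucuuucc
MIR135B: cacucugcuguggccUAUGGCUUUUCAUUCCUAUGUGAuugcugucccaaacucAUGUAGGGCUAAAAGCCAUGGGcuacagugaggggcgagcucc
MIR224: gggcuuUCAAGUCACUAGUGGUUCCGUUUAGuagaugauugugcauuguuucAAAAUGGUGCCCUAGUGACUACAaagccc
MIR21 lies at chr17:59841266-59841337 on the plus strand, in an exon of the autophagy gene VMP1. MIR31 lies at chr9:21512115-21512185 on the minus strand, in an intron of the noncoding gene MIR31HG. MIR135B lies at chr1:205448302-205448398 on the minus strand, in an intron of LEMD1. MIR224 lies at chrX:151958578-151958658 on the minus strand, in an exon of an annotated transcript of GABRE, which encodes a GABA receptor subunit and also hosts MIR452. The 4 hairpins thus sit on 4 chromosomes in 4 host genes.

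Depth differed widely between samples and between groups. The CD44v6− samples held 7880631 and 4592278 reads and the CD44v6+ samples 919802 and 154481 reads, so the deepest held 51.0 times the shallowest. A count of 0 allows up to 3 reads, which is 0.574 and 0.544 CPM in CD44v6− samples 1 and 2, and 3.24 and 15.6 CPM in CD44v6+ samples 1 and 2. CPM here are reads per 1000000 after TMM scaling, a correction for samples that differ in composition. Such limits, and all intervals given here, reflect only the error of counting, because PCR copies of a molecule are counted as separate reads. The 6 miRNAs taken to mark epithelium summed to between 13445 and 32168 CPM. The 7 markers of stroma and muscle summed to 857 to 1274 CPM in samples other than CD44v6+ sample 2 and to 5071 CPM there, mostly as miR-143-3p. Of the same markers, miR-199a-5p was also highest there, at 36.5 CPM. miR-145-5p was lowest there, with 179 and 197 CPM in the CD44v6− and 100 and 57.3 CPM in the CD44v6+ samples. The liver marker miR-122-5p was at 4.59, 3.99, 48.6 and 610 CPM in CD44v6− samples 1 and 2 and CD44v6+ samples 1 and 2. The 8 markers of blood and endothelium summed to between 1679 and 3957 CPM, mostly as miR-486-5p. Of these markers, in the same order of samples, miR-451a had 24.9, 7.62, 15.1 and 281 CPM. miR-142-5p had 114, 90.8, 60.4 and 276 CPM, whereas miR-126-3p was lowest in CD44v6+ sample 2, at 141 CPM. Whether such reads came from other cell types, and what part they had in the results, was not tested.

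The guide of miR-21 was among the most abundant miRNAs in every sample, and its level spread widely within each group. miR-21-5p had 947816 and 325869 reads in the CD44v6− samples and 49257 and 5768 reads in the CD44v6+ samples, which was 181342, 59083, 53152 and 30060 CPM. It ranked 2 and 4 among all entries in the CD44v6− samples and 6 and 7 in the CD44v6+ samples. The groups did not overlap, but CD44v6− sample 2 lay nearer to the CD44v6+ samples than to CD44v6− sample 1. The mean was 120213 ± 86450 CPM in CD44v6− and 41606 ± 16329 CPM in CD44v6+ cells (SD, n = 2). On the log2 scale the difference was -1.53 ± 0.64 (SE), at an edgeR adjusted p of 0.171. In these pooled cells, fewer cells with a miRNA and less of it per cell cannot be told apart. Without CD44v6− sample 1 the log2 fold change was -0.51. Over 478 tested miRNAs with a known hairpin, which are not independent replicates, log2 fold change went with the GC content of the hairpin part that holds the arm (Pearson r of 0.40). With that GC content corrected for, an alternative added after the values were seen, miR-21-5p was at -0.88.

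The passenger of miR-21 differed more, and after TMM scaling its replicates lay close together. miR-21-3p had 64448 and 62610 reads in the CD44v6− samples and 1578 and 318 reads in the CD44v6+ samples. As levels these were 12331 and 11352 CPM against 1703 and 1657 CPM. Every CD44v6− value thus lay far above every CD44v6+ value, and each pair differed little after this scaling. As shares of all reads, before scaling, the values were 0.818% and 1.36% against 0.172% and 0.206%. The gap between the groups was thus also present there, but the CD44v6− pair lay less close. The log2 fold change was -2.82 ± 0.43, a 7.05-fold lower level in CD44v6+ cells, and the edgeR adjusted p of 0.0787 did not pass 0.05. At the mean CD44v6− level, 10974 and 2272 reads would have been counted in CD44v6+ samples 1 and 2, so the counts behind this difference were large in every sample.

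miR-31 had a guide of nearly equal level in both groups and a passenger that was much lower in CD44v6+ cells. miR-31-5p had 91147 and 93590 reads in the CD44v6− samples and 12057 and 2616 reads in the CD44v6+ samples. The levels were 17439, 16969, 13010 and 13633 CPM, with ranks from 11 to 14 among all entries. The log2 fold change of -0.37 ± 0.39 was smaller than its standard error (edgeR adjusted p = 0.563). It lay near the median of -0.31 over all tested miRNAs, and it was -0.05 with upper quartile and -0.09 with total count scaling, which moved that median up by 0.34 and 0.31.

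miR-31-3p had 4688 and 4325 reads in the CD44v6− samples and 63 and 3 reads in the CD44v6+ samples. Its levels were 897 and 784 CPM against 68.0 and 15.6 CPM. All CD44v6− values lay above the CD44v6+ values, and the CD44v6+ samples differed from each other by more than the CD44v6− samples did. The log2 fold change was -4.21 ± 0.77, an 18.5-fold lower level, with an edgeR adjusted p of 0.0787. Counted to the depth of the shallowest sample, the CD44v6− samples would give 91.9 and 145 reads and CD44v6+ sample 1 would give 10.6 reads, against the 3 reads of CD44v6+ sample 2. It ranked 88 and 91 in the CD44v6− samples, and 195 and 352 in the CD44v6+ samples. Without CD44v6+ sample 1 the log2 fold change was -5.75, and without CD44v6+ sample 2 it was -3.49.

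miR-135b was read rarely in the CD44v6+ samples. miR-135b-5p had 1440 and 581 reads in the CD44v6− samples, and 63 reads and 1 read in the CD44v6+ samples, or 276, 105, 68.0 and 5.21 CPM. The groups did not overlap, yet both spread widely. The log2 fold change of -2.21 ± 1.01 had an edgeR adjusted p of 0.196. At the mean CD44v6− level CD44v6+ sample 2 would have held 36.5 reads. This value rested on single samples. It was -5.18 without CD44v6+ sample 1 and -1.37 without either CD44v6− sample 1 or CD44v6+ sample 2.

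The passenger miR-135b-3p had 232 and 139 reads against 17 and 3 reads, or 44.4 and 25.2 CPM against 18.3 and 15.6 CPM. The groups were close and did not overlap. Its log2 fold change was -1.003 ± 0.67 (edgeR adjusted p = 0.357). At the mean CD44v6− level only 6.68 reads were to be counted in CD44v6+ sample 2, so a modest difference was not detectable there.

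miR-224-5p was the only tested arm with a higher level in CD44v6+ cells. It had 477 and 583 reads in the CD44v6− samples and 148 and 50 reads in the CD44v6+ samples. At their depths these were 91.3 and 106 CPM against 160 and 261 CPM. Both CD44v6+ samples lay above both CD44v6− samples. The log2 fold change of 1.08 ± 0.55 was 2.12-fold and had an edgeR adjusted p of 0.231. With the GC correction it was 1.78. The passenger miR-224-3p had 10 and 8 reads in the CD44v6− samples and 0 reads in both CD44v6+ samples, and did not pass the filter on low counts. At its CD44v6− level 1.56 and 0.323 reads were to be counted in the CD44v6+ samples, so its absence there was within counting error.

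**Figure D1:**
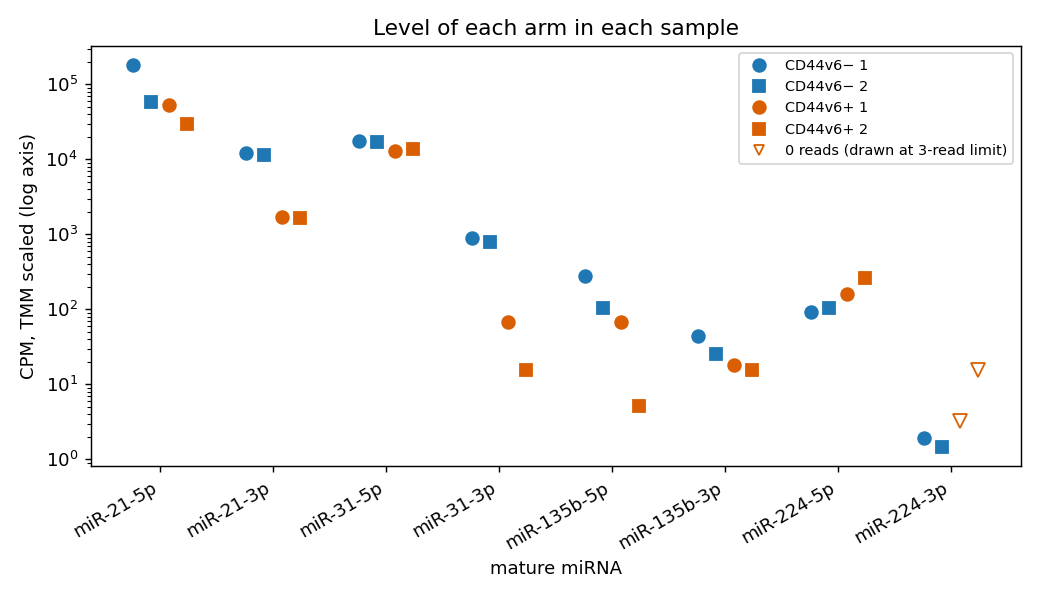
TMM-scaled CPM (log axis) of each arm in CD44v6− samples 1 and 2 (blue) and CD44v6+ samples 1 and 2 (orange). Each point is 1 sample, and open triangles mark 0 reads, drawn at the level of 3 reads. miR-21-3p and miR-31-3p show wide gaps between the groups, miR-31-5p lies between 13010 and 17439 CPM in all samples, and miR-224-5p is higher in both CD44v6+ samples.

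Of the 8 arms, 7 were tested, and the quasi-likelihood test of edgeR gave 0 of them an adjusted p under 0.05, as it did 0% of the 570 tested miRNAs. At an unadjusted p under 0.05, miR-21-3p and miR-31-3p were lower, 2 of 7, against 17.5% of all tested miRNAs, and 0 of 7 were higher, against 13%. These were the entries of rank 3 and 5 by p among the 570. In TMM-scaled CPM the groups did not overlap for any of the 7 tested arms, 6 lower and 1 higher. Of all tested miRNAs, 34.6% were so lower and 24.9% higher. This depended on the scaling for miR-31-5p, whose unscaled shares of all reads overlapped, at 1.16% and 2.04% in the CD44v6− and 1.31% and 1.69% in the CD44v6+ samples. Among the 7, 6 had a negative log2 fold change, and 55.4% of all tested miRNAs did. The median over the 7 was -1.53, beside -0.31 over all tested. DESeq2 on the same 570 entries called miR-21-3p and miR-31-3p lower, against 6.29% of the miRNAs it gave an adjusted p, and limma-voom called miR-21-3p, against 0.351% called lower. Whether the samples of a group were grown as separate cultures is not stated in the labels, so the p-values reflect sample-to-sample spread that could be technical in origin.

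**Figure D2:**
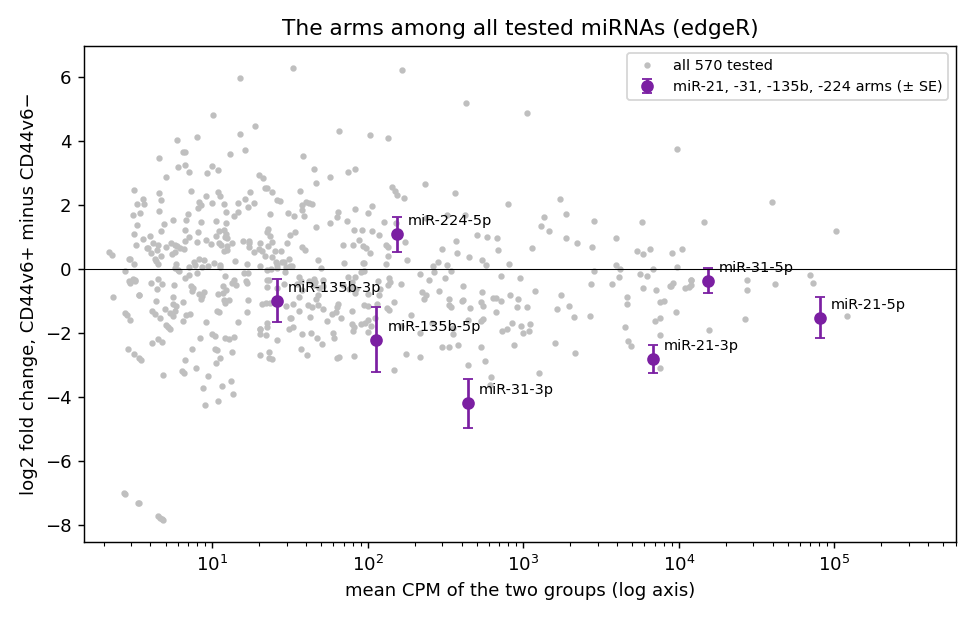
Log2 fold change (CD44v6+ minus CD44v6−) against mean CPM (log axis) for the 570 tested miRNAs (grey), with the 7 tested arms in purple and their standard errors. miR-31-3p at -4.21 and miR-21-3p at -2.82 are among the lower values at their level, and miR-31-5p at -0.37 lies near the middle.

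The balance of the arms was compared next, since the ratio of 2 arms in 1 sample does not depend on how samples are scaled. For miR-21, the guide had 14.7 and 5.20 reads per passenger read in CD44v6− samples 1 and 2, and 31.2 and 18.1 in CD44v6+ samples 1 and 2. Both CD44v6+ ratios were higher, but the CD44v6− samples differed from each other by more than CD44v6− sample 1 did from CD44v6+ sample 2. The passenger made up 6.37% and 16.1% of the hairpin's reads in the CD44v6− samples and 3.10% and 5.23% in the CD44v6+ samples. The exact 95% binomial interval in CD44v6+ sample 2 ran from 4.68% to 5.81%, so counting error does not reach the other samples' shares.

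The arms of miR-31 differed most. The guide had 19.4 and 21.6 reads per passenger read in the CD44v6− samples, and 191 and 872 in the CD44v6+ samples. The CD44v6− ratios lay close together and both CD44v6+ ratios lay far above. The passenger share was 4.89% and 4.42% in the CD44v6− samples, and 0.520% (exact 95% interval 0.3997% to 0.665%) and 0.115% (0.0236% to 0.334%) in the CD44v6+ samples. The last interval rests on 3 passenger reads beside 2616 guide reads, so the ratio of 872 is imprecise, yet its upper bound lies under every other sample's share.

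miR-135b went the other way. Its guide had 6.21 and 4.18 reads per passenger read in the CD44v6− samples and 3.71 and 0.333 in the CD44v6+ samples. The passenger share was 13.9% and 19.3% against 21.2% and 75.0%. The exact intervals were 12.9% to 31.8% in CD44v6+ sample 1 and 19.4% to 99.4% in CD44v6+ sample 2, which held 4 reads of the hairpin. The first interval holds both CD44v6− shares. The second lies just above both, and overlaps the interval of CD44v6− sample 2, 16.5% to 22.4%. miR-224 had 47.7 and 72.9 guide reads per passenger read in the CD44v6− samples. With 0 passenger reads in the CD44v6+ samples, their shares could be up to 2.03% and 6%, and the CD44v6− shares of 2.05% and 1.35% are within or next to those limits.

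**Figure D3:**
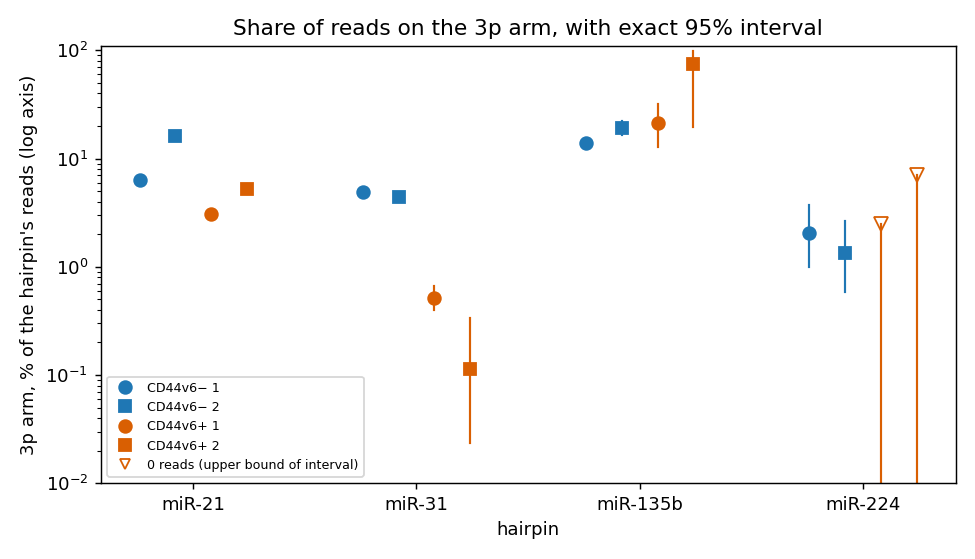
Share of each hairpin's reads that came from the 3p arm (percent, log axis) in CD44v6− (blue) and CD44v6+ (orange) samples, with exact 95% binomial intervals. Open triangles stand at the upper bound where no 3p read was counted. The miR-31 share is 4.42% to 4.89% in CD44v6− and 0.115% to 0.520% in CD44v6+ samples.

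The change of log2(5p/3p), CD44v6+ minus CD44v6−, was tested with limma over the 137 hairpins that had both arms among the tested entries, with 0.5 reads added to each arm. The added reads pull ratios of low counts toward 1, and more so in the shallow CD44v6+ samples. This also enters the shares over all hairpins given below. For miR-31 the mean log2 ratio was 4.36 ± 0.11 in CD44v6− and 8.56 ± 1.40 in CD44v6+ cells (SD, n = 2), a change of 4.20 ± 0.84 (SE) with a limma adjusted p of 0.186. This was the change of rank 2 from the highest among the 137. It was 5.19 without CD44v6+ sample 1 and 3.21 without CD44v6+ sample 2. For miR-21 the mean log2 ratio was 3.13 ± 1.06 against 4.57 ± 0.55, a change of 1.44 ± 0.76 (limma adjusted p = 0.342). It was 2.19 without CD44v6− sample 1 and 0.69 without CD44v6− sample 2. For miR-135b it was 2.35 ± 0.40 against 0.32 ± 2.18, a change of -2.03 ± 1.17 (limma adjusted p = 0.354), and it was -3.57 without CD44v6+ sample 1 and -0.49 without CD44v6+ sample 2. miR-224 was not tested, since its 3p arm did not pass the filter.

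Of the 3 tested hairpins 0 passed, as was so for 0% of all 137. The miR-31 ratio had an unadjusted limma p of 0.00582, and 5.84% of the hairpins had an unadjusted p under 0.05 with a higher 5p share. The groups did not overlap for miR-21 and miR-31, both higher, where 30.7% of all hairpins were, and for miR-135b, lower, where 28.5% were. In miR-21 and miR-31 the less abundant arm lay further below its CD44v6− level than the more abundant arm did, and in miR-135b the reverse held. Over all 137 hairpins the ratio of the less to the more abundant arm was lower in CD44v6+ cells in 65, or 47.4%. The reads added to each arm lift rare arms most in the shallow CD44v6+ samples, which can hide a fall of a rare arm. Whether passenger strands were generally the lower ones thus cannot be told from this share. With edgeR's test of arm usage on the raw counts, miR-31 passed, with a change of 3.81 and an adjusted p of 0.0122, and 0.73% of the hairpins passed in that direction.

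**Figure D4:**
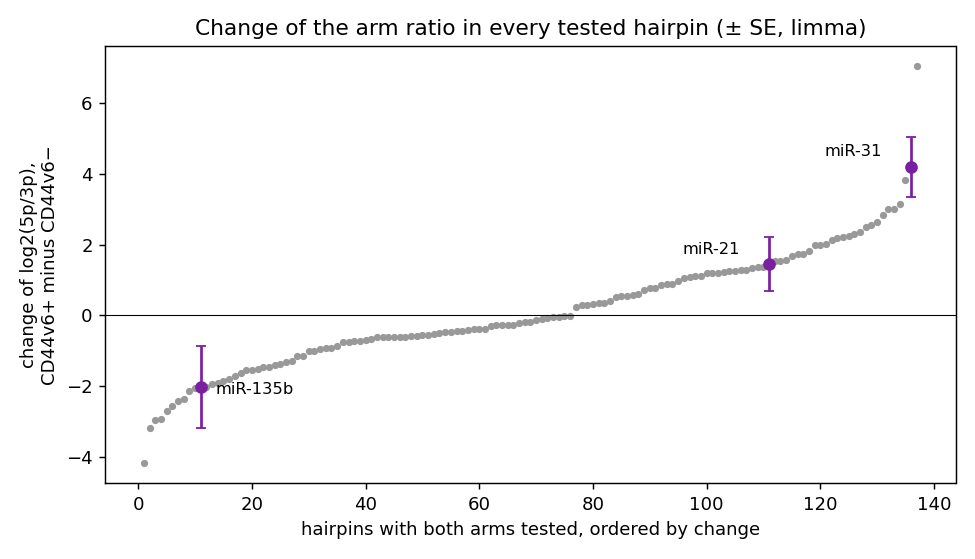
Change of log2(5p/3p) from CD44v6− to CD44v6+ in the 137 tested hairpins, in order of size, with miR-21, miR-31 and miR-135b in purple (± SE). miR-31 at 4.20 stands next to the highest value, miR-21 at 1.44 is within the upper part and miR-135b at -2.03 within the lower part.

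The order of the guides was the same in all samples for the abundant pair and differed for the rare pair. miR-21-5p stood above miR-31-5p in each sample, and both stood far above the others. In CD44v6− sample 1 miR-135b-5p (276 CPM) was above miR-224-5p (91.3 CPM), in CD44v6− sample 2 they were level at 105 and 106 CPM, and in both CD44v6+ samples miR-224-5p was the higher, at 160 against 68.0 CPM and at 261 against 5.21 CPM. Over the CD44v6− samples, 190 ± 120 CPM and 98.5 ± 10.2 CPM did not differ beyond their spread. Such orders also carry the unequal ligation of different miRNAs into a library. The 8 arms together made up 14.1% and 10.6% of all reads in the CD44v6− samples and 6.87% and 5.67% in the CD44v6+ samples, most of it as miR-21-5p, which alone made up 12.0% and 7.10%, and 5.36% and 3.73%. miR-31-5p made up 1.16% and 2.04% in the CD44v6− samples and 1.31% and 1.69% in the CD44v6+ samples.

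The entries that share a seed with a guide were rare. miR-590-5p, with the seed of miR-21-5p, had 50 and 54 reads in the CD44v6− samples and 0 in both CD44v6+ samples, where its CD44v6− level would give 8.97 and 1.86 reads. Beside the 947816 and 325869 reads of miR-21-5p it adds almost nothing to that seed. miR-135a-5p had 8 reads and 1 read in the CD44v6− samples and 2 reads and 1 read in the CD44v6+ samples, so in CD44v6+ sample 2 it equalled miR-135b-5p, at 1 read each. MIR452 lies beside MIR224 in GABRE. miR-452-5p had 50.1 and 40.4 CPM in the CD44v6− samples and 12.9 and 41.7 CPM in the CD44v6+ samples, overlapping, and its log2 difference was -0.89 ± 0.76 (edgeR adjusted p = 0.479), beside the 1.08 of miR-224-5p. The value of miR-452-5p was -0.12 without CD44v6+ sample 1, -1.67 without CD44v6+ sample 2 and -0.23 with the GC correction. The difference between these neighbours was not tested. miR-452-3p had 0 reads in every sample.

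The likeness of other miRNAs was measured by the root-mean-square distance of log2 CPM, each centred on its own mean, over the 4 samples and among 183 tested entries with a mean of at least 100 CPM. Nearest to miR-21-5p were miR-100-5p (0.15) and miR-23a-3p (0.16). Nearest to miR-31-5p were miR-30c-5p (0.12) and miR-25-3p (0.13). miR-224-5p lay nearest to miR-181b-5p (0.08), which had 413 and 507 CPM in the CD44v6− and 655 and 1131 CPM in the CD44v6+ samples, and to miR-1301-3p (0.19). miR-135b-5p had no near neighbour, with miR-331-3p at 0.60 and miR-20a-5p at 0.65. With 4 samples such distances are descriptions only.

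Other miRNAs often reported raised in colorectal tumours, a list of 15 of which 14 were tested, had 0 past an adjusted p under 0.05, 7 lower and 2 higher at an unadjusted edgeR p under 0.05, and a median log2 fold change of -1.44. Over all tested miRNAs 17.5% were lower and 13% higher at that threshold, and the median was -0.31. The most abundant entry of this list, miR-92a-3p, was higher in CD44v6+ cells. It was at 65928 and 60494 CPM in the CD44v6− samples and 144622 and 139614 CPM in the CD44v6+ samples. The next in abundance were lower, with log2 fold changes of -0.47 ± 0.42 (miR-182-5p), -0.55 ± 0.40 (miR-25-3p) and -3.11 ± 0.91 (miR-20a-5p). Of 13 miRNAs often reported lowered in such tumours, 9 were tested, with 0 past the adjusted threshold, 0 lower and 1 higher at an unadjusted p under 0.05, and a median of -0.26. Of these 9, 5 had a log2 fold change below 0 and 4 above. The most abundant, miR-378a-3p, was at -0.26 ± 0.44 (edgeR adjusted p = 0.712). The next, miR-375, known from endocrine cells, was at 1751 and 1224 CPM against 3818 and 4654 CPM. It was higher by 1.51 ± 0.45 on the log2 scale (edgeR adjusted p = 0.117). The median of -1.53 over the 7 arms lay beside that of the first list. The 7 arms include passengers, while that list holds only a single arm of each miRNA, so the sets are unlike. Arms and lists were chosen with earlier results of these data known, so this is a description only.

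**Figure D5:**
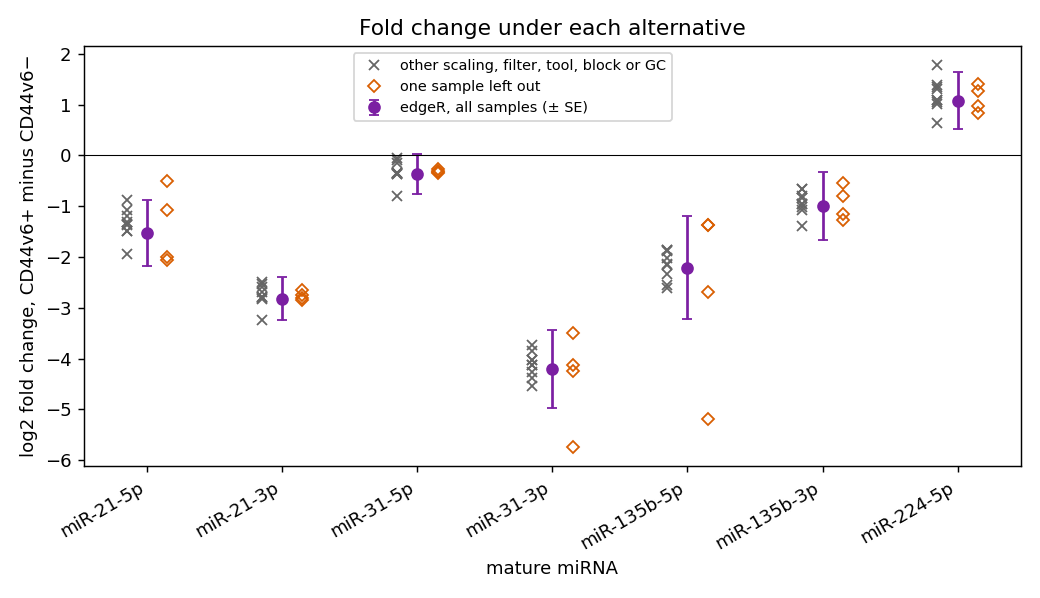
Log2 fold change (CD44v6+ minus CD44v6−) of each tested arm with all samples (purple, ± SE), with another scaling, filter, tool, replicate block or GC correction (crosses) and with 1 sample left out (orange diamonds). miR-21-3p stays between -3.23 and -2.49, whereas miR-135b-5p runs from -5.18 to -1.37 and miR-21-5p from -2.05 to -0.51.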

How the data were processed

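The authors deposited raw counts for 2026 mature miRNA entries in 1 table of 4 columns. Per the labels, 8 sequencing entries carry 4 combined identities, 2 each, and the columns bear these, which gives n = 2 a group, where the series text has 4. Bowtie 0.12.9, cutadapt 1.10, CASAVA 1.8.2 and DESeq2 are named as tools, and GRCh38 as the build, per the submitters' processing notes. What each did, the annotation, and how reads with several matches were counted is not given in the sources used here. A table of normalized values was not used here.

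Levels are CPM with TMM scaling. The test was edgeR 4.0.16 (estimateDisp, glmQLFit, glmQLFTest) in R 4.3.3, after filterByExpr (minimum count 10, minimum total 15), with Benjamini-Hochberg adjustment over 570 entries. The SE was taken as |log2 fold change| / sqrt(F). Arm ratios were tested with limma 3.58.1 over 137 hairpins. Exact permutation of 2 against 2 samples cannot go below p = 0.333 and was not used. Alternatives were other scalings, filters, tools (DESeq2 1.42.0, limma-voom, edgeR diffSpliceDGE), a replicate block, samples left out and, chosen after seeing the data, a GC correction. Both fits were also run on simulated counts with less spread between replicates than these data have, so those runs do not give the error rates here. Named miRNAs were the 8 arms, entries sharing a seed, MIR452 arms, the 2 nearest entries per guide and abundant entries of the lists. The members and lists were chosen with earlier results of these data known. Hairpin positions are from RefSeq, host genes from GENCODE release 29, both GRCh38.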

Additional observations from a re-analysis of the deposited data

How the results depend on the processing

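All 91 log2 fold changes of the 7 tested arms under the alternatives, and all 23 arm ratio changes, kept their direction, and 14 and 3 of them passed an adjusted p under 0.05. miR-21-3p passed with total count scaling (-2.53), no filter (-3.23), DESeq2 (-2.79) and limma-voom (-2.81, at an adjusted p of 0.0499), and miR-31-3p with total count scaling (-4.02), no filter (-4.54) and DESeq2 (-4.13). miR-135b-5p passed with no filter (-2.55). For miR-31-3p and miR-135b-5p the passes also include the fit without CD44v6+ sample 1, which leaves only the shallowest sample in that group. Passes with a replicate block are given below. The miR-31 arm ratio passed with edgeR's arm usage test (3.81). With 1 sample left out, log2 fold changes ran from -5.75 to -3.49 for miR-31-3p and from -5.18 to -1.37 for miR-135b-5p. The number of miRNAs past the threshold was 0 with edgeR, where 74 were higher and 100 lower at an unadjusted p under 0.05. It was 33 higher and 15 lower with total count scaling, 24 and 53 with no filter, 42 and 33 with DESeq2 and 2 and 2 with limma-voom. Leaving out 1 sample gave 0 to 39 higher and 0 to 17 lower, most without CD44v6+ sample 1. For arm ratios it was 0, and 2 with edgeR's arm usage test. The cause of these differences was not tested.

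Whether samples that share the number 1 or 2 were grown or sorted together is not stated in the labels. Deviations of same-numbered samples correlated at r = 0.39 over 570 entries, with only 2 pairs. With the number as a replicate block, 99 miRNAs were higher and 129 lower, miR-21-5p (-1.37), miR-21-3p (-2.82), miR-31-3p (-4.37) and miR-135b-5p (-2.60) passed, and of 31 hairpins past the threshold in arm ratio, miR-31 (4.20) and miR-135b (-2.03) were members. With the GC correction, fitted on the 83.9% of tested entries whose hairpin GC was known, miR-21-5p was -0.88, miR-21-3p -2.69, miR-31-3p -3.74 and miR-224-5p 1.78, and none passed. Where leaving out a sample left 1 in a group, that sample was assumed to vary like the others. Depth limits miR-135b and miR-224-3p most.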
